A study of Mus musculus with 2 samples.

Results

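Neutrophils and basophils of the mouse lung were taken from a single-cell RNA sequencing (scRNA-seq) data set as the cells that the authors had annotated with either name. There were 805 such cells among 18397, of which 743 were neutrophils and 62 were basophils, and each type was examined on its own. Neutrophils numbered 363 in the library of control diet (CD) lungs and 380 in the library of high-fat diet (HFD) lungs, and basophils numbered 29 and 33.

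Neutrophils are short-lived granulocytes made in the bone marrow, and the capillaries of the lung hold a large store of them. They kill microbes with granule proteins and reactive oxygen, obtain their energy largely from glycolysis, and are known as cells with little RNA and few mitochondria. Basophils are rare circulating granulocytes that carry the high-affinity IgE receptor, store histamine and release interleukin 4, and in mice they make the protease Mcpt8.

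Lungs came from female BALB/c mice aged 20 weeks that had received either diet for 16 weeks, with no further treatment given in the labels. Fat, protein and carbohydrate gave 13%, 27% and 60% of the energy in CD and 60%, 20% and 20% in HFD, and lard was the source of fat. The lungs were perfused, minced, digested with Liberase and DNase, and freed of red blood cells before capture in droplets. A single library was made per diet, and how many mice it pooled was not given in the sources used here. No difference between the diets could therefore be tested. The 95% intervals below cover counting error among the captured cells only, and cells are not replicates of a diet.

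The CD library held 8793 cells with 42470977 unique molecular identifiers (UMIs, each standing for 1 captured transcript), and the HFD library held 9604 cells with 50679251 UMIs. Cells of 10 annotated immune types made up 42.6% of the CD library and 39.1% of the HFD library. The lowest cell had 1000 UMIs in CD and 1001 in HFD, above the minimum of 500 UMIs stated for the authors' filter, so cells with fewer UMIs were not analysed here. Of the barcodes, 27 occurred in both libraries, of which 1 belonged to a neutrophil in each and none to a basophil. The CD cell of that pair had 1380 UMIs and 0.217% mitochondrial UMIs, whereas the HFD cell had 3120 UMIs and 17.9%.

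Of the genes that define these cells, S100a8 and S100a9, which encode the subunits of the abundant cytosolic protein calprotectin, lie 22596 bases apart on chromosome 3 of the GRCm38 assembly. S100a8 (ENSMUSG00000056054) spans positions 90668978 to 90670035 on the plus strand and S100a9 (ENSMUSG00000056071) spans 90692632 to 90695721 on the minus strand. Mcpt8 (ENSMUSG00000022157), the basophil protease, spans 56082166 to 56085273 on the minus strand of chromosome 14. The deposited tables used here give no level of a gene in a cell, so the annotation of the cells was not checked against these markers. What could be read was whether a gene belonged to the 1000 highly variable genes, 5.19% of the 19278 genes listed, on which the authors built their clusters from all cells of both libraries. S100a8, S100a9 and Mcpt8 were among them.

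Genes listed for neutrophils were mostly in that set. Of 10 genes for surface proteins and receptors, 9 carried the flag, among them Csf3r, the receptor of granulocyte colony-stimulating factor, and Cxcr2, the receptor for chemokines that recruit neutrophils. The exception was Ly6g, the gene of the antigen used to sort mouse neutrophils. All 8 genes of the S100 and cytosolic list carried it, including Retnlg and Il1b, the gene of interleukin 1 beta. All 8 genes of the secondary and tertiary granules did as well, including Ltf (lactoferrin), Camp (cathelicidin), Ngp, Lcn2 and Mmp9. Of the primary granule genes, Prtn3 and Ctsg could be matched and did not carry the flag, and Mpo and Elane were not analysed here. Most genes lie outside the set, so nothing is read from 2 genes without the flag.

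For basophils, 7 of 11 listed genes carried the flag. They were Mcpt8, Cd200r3, Hdc, which makes histamine, Cpa3, Il4, Cyp11a1 and Ccl3. The other 4 listed genes, Ms4a2 and Fcer1a of the IgE receptor, the transcription factor Gata2, and Il13, did not carry it. Genes of the 2 related granulocyte types were too few to set against the 5.19% over all genes. Of 3 mast cell genes that could be matched, Cma1 carried the flag and Mcpt4 and Kit did not, and none of 3 eosinophil genes did (Siglecf, Prg2 and Ccr3). For comparison, the 3 monocyte markers Ly6c2, Ccr2 and Csf1r were flagged, as were Mrc1 and C1qa but not Adgre1 of the macrophage markers. A flag says that a gene varied across all captured cells and gives neither its level nor the cells that held it.

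The authors' fine clusters gave the neutrophils an uneven make-up. Cluster 9 held 712 neutrophils, 349 from CD and 363 from HFD, and was the ninth largest of 51 clusters. Cluster 47 held the other 31, with 14 from CD and 17 from HFD. Basophils formed a single cluster, number 44, with 29 cells from CD and 33 from HFD. No cell of another annotation fell in these 3 clusters, as in all 51 clusters, since the authors named cell types by cluster. Cluster 47 made up 3.86% of the CD neutrophils (95% interval 2.12 to 6.39) and 4.47% of the HFD neutrophils (2.63 to 7.07), with overlapping intervals.

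In the authors' UMAP plane, in which the clusters were made, clusters 9 and 47 lay nearest to each other, with 0.0684 plane units between their median positions. The next cluster, number 40 of plasmacytoid dendritic cells (pDCs), was 0.340 units from cluster 9 and 0.281 units from cluster 47. Basophil cluster 44 lay 0.231 units from the unannotated cluster 45 and 0.299 units from the endothelial cluster 36. The 15 nearest neighbours of each neutrophil and of each basophil were 100% cells of the same type. The other types had 100% as well, apart from DCs with 99.5%. Types were named by cluster and the clusters were made in this plane, so a share near 100% was set in advance. Distances in this plane describe the authors' layout and have no scale of their own.

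In the CD library 4.13% of cells were neutrophils (3.72 to 4.57), as were 3.96% in the HFD library (3.58 to 4.37). The HFD share divided by the CD share gave 0.958 (0.828 to 1.11), an interval that holds 1. With endothelial, B and T cells left out of the total it was 0.834 (0.721 to 0.966), and among cells with at least 2000 UMIs 1.91 (1.50 to 2.45), intervals that exclude 1 on either side. Among immune cells their share was 9.70% for CD (8.77 to 10.7) and 10.1% for HFD (9.17 to 11.1), with a ratio of 1.04 (0.901 to 1.21). The basophil share was 0.330% under CD (0.221 to 0.473) and 0.344% under HFD (0.237 to 0.482). Their ratio was 1.04 (0.613 to 1.78) among all cells and 1.13 (0.668 to 1.94) among immune cells. Neither type was among the cell types whose intervals did not overlap between diets, which were 5 of 17, or 29.4%. There were 12.5 neutrophils per basophil in CD and 11.5 in HFD.

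Neutrophils were the cells with the least RNA captured. The median CD neutrophil had 1666 UMIs (1614 to 1729) and the median HFD neutrophil had 2073 (2000 to 2164), each the lowest of 17 cell types in its library. The median over the 8 other immune types pooled was 3312 UMIs in CD and 3738 in HFD, so that neutrophils held 0.503 times (0.477 to 0.533) and 0.555 times (0.521 to 0.591) as many. Lymphocytes make up most of that pool: with each other type counted once the ratios were 0.307 and 0.325, and against myeloid types alone 0.230 (0.206 to 0.258) and 0.261 (0.237 to 0.288). NK cells came next among the immune types, with 2097 UMIs in CD and 2717 in HFD, and alveolar macrophages were highest, with 10841 and 13483. Neutrophils were also lowest in detected genes, with a median of 699 per cell in CD (688 to 715) and 784.5 under HFD (760 to 804). B cells came next, with 1025 and 1100 genes, and the other immune types pooled had medians of 1211 and 1328 genes. The ratio of genes was 0.577 and 0.591 against the pooled cells, 0.382 and 0.373 with each type counted once, and 0.308 and 0.327 against myeloid types alone. A minimum of UMIs applied to all cells raised the pooled ratio, to 0.873 (0.704 to 1.11) for CD and 0.658 (0.625 to 0.696) for HFD from 2000, and to 1.24 (1.12 to 1.41) and 1.03 (0.928 to 1.19) from 3000.

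The median basophil had 3247 UMIs under CD (2851 to 3803) and 3841 under HFD (3495 to 4460), and the ratio to the other immune types was 0.980 (0.843 to 1.17) and 1.03 (0.911 to 1.22). With each other type counted once it was 0.598 and 0.602, and against myeloid types alone 0.447 (0.364 to 0.568) and 0.483 (0.415 to 0.594), so that depth close to that of other immune cells holds for the lymphocyte-rich pool and not for myeloid cells. Single basophils ranged from 1907 to 10204 UMIs in CD and from 1322 to 9921 in HFD. In genes, the medians were 1154 for CD (1050 to 1259) and 1199 for HFD (1112 to 1435), or 0.953 times (0.854 to 1.05) and 0.903 times (0.827 to 1.10) the value of the other immune types. Against myeloid types alone these were 0.508 (0.439 to 0.578) and 0.50 (0.445 to 0.617).

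**Figure D1:**
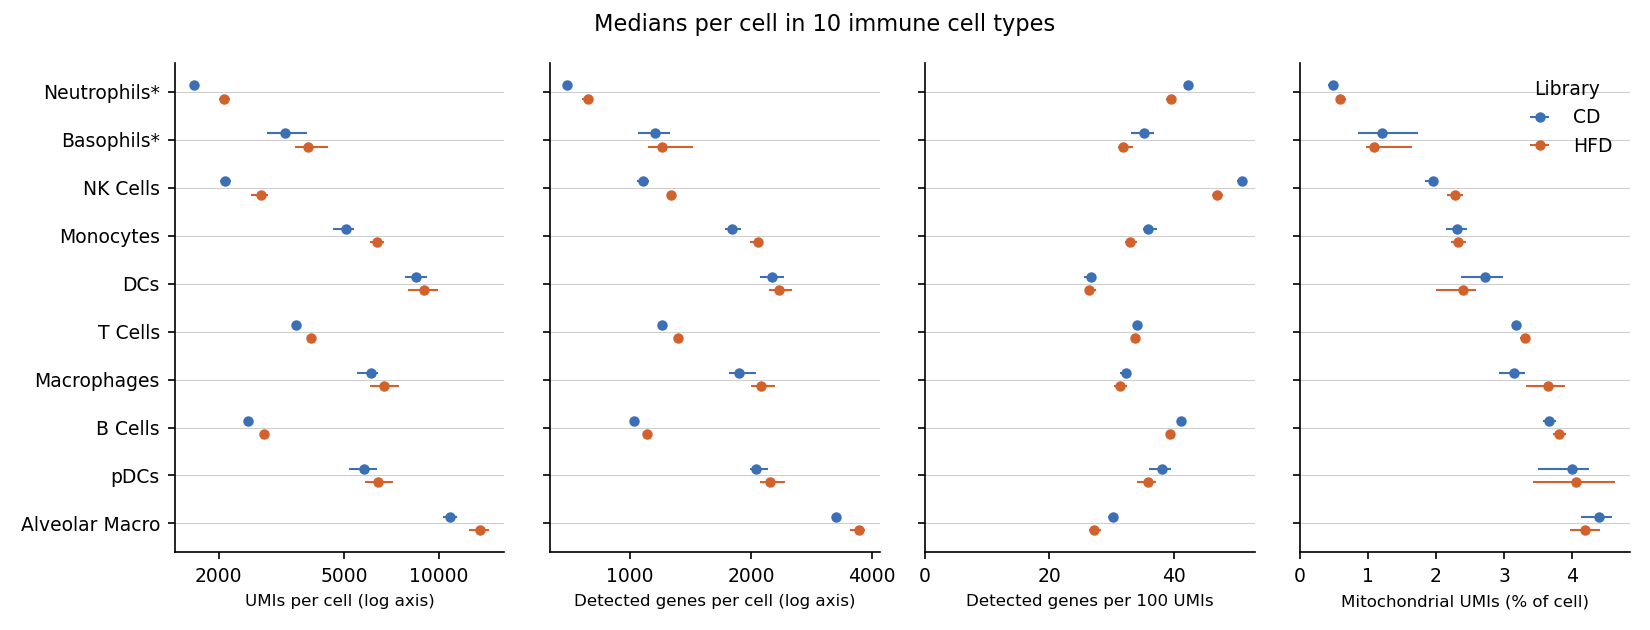
Medians over cells of UMIs, detected genes, detected genes per 100 UMIs and mitochondrial percent (horizontal axes) in the 10 annotated immune types (rows, ordered by mitochondrial percent, with asterisks at the 2 types described here), for CD (blue) and HFD (orange), with bars for 95% order-statistic intervals. Neutrophils sit at the low end of the axes of UMIs, genes and mitochondrial percent, and basophils have the second lowest mitochondrial percent.

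The mitochondrial percent, the share of a cell's UMIs that came from the 13 mitochondrially encoded genes, was the measure in which both types stood furthest from other immune cells. Neutrophils had a median of 0.483% in CD (0.416 to 0.564) and 0.595% in HFD (0.537 to 0.678), against 3.21% and 3.34% in the other immune types. This was 0.151 times (0.128 to 0.179) and 0.178 times (0.158 to 0.206) their value, and the lowest of 17 types in each library. The ratio was closer to 1 among cells with many UMIs, at 0.454 (0.292 to 0.570) in CD and 0.199 (0.170 to 0.227) in HFD from 2000 UMIs and at 0.579 (0.501 to 0.693) and 0.532 (0.356 to 0.742) from 3000. With means in place of medians it was 0.291 and 0.350. Basophils had the second lowest median, 1.21% in CD (0.860 to 1.74) and 1.09% in HFD (0.965 to 1.65), or 0.377 times (0.264 to 0.551) and 0.326 times (0.284 to 0.502) the other immune value. The intervals of neutrophils and basophils did not overlap in either library. NK cells followed with 1.95% and 2.28%, and alveolar macrophages were the highest immune type with 4.40% and 4.19%.

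In molecules, the median CD neutrophil held 8 mitochondrial UMIs (7 to 9) and the median HFD neutrophil held 12 (11 to 14). The median basophil held 36 (23 to 87) and 39 (33 to 60), and the median cell of the other immune types held 110 and 128. Below 1% mitochondrial UMIs were 71.1% of CD neutrophils (66.1 to 75.7) and 69.7% of HFD neutrophils (64.8 to 74.3). The same was true of 37.9% (20.7 to 57.7) and 36.4% (20.4 to 54.9) of basophils, but of 5.70% and 4.79% of the other immune cells. No mitochondrial UMI at all was found in 16 CD neutrophils, or 4.41% (2.54 to 7.06), and in 3 HFD neutrophils, or 0.789% (0.163 to 2.29). CD neutrophils also had the fewer UMIs per cell, and the part of depth in this count was not tested.

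The low mitochondrial percent was not shared by the whole of the neutrophil class. Above 5% were 6 CD neutrophils, 1.65% of them (0.609 to 3.56), and 15 HFD neutrophils, 3.95% (2.23 to 6.43), with a highest value of 19.0%. All 21 were in cluster 9, and their median was 2230 UMIs. No basophil was above 5%, which allows a share of up to 11.9% in CD and 10.6% in HFD (upper limits of the exact 95% intervals). Pooled over cells, mitochondrial UMIs were 1.34% of all neutrophil UMIs in CD and 1.55% in HFD, above the medians per cell.

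Fewer UMIs give fewer genes and a coarser mitochondrial percent, so each cell was set against the cells of the 8 other immune types in its own library that had UMIs within 10% of its own. At such matched depth, neutrophils had a median difference of -101 genes in CD (-109 to -90.5), and 84.8% of them (80.7 to 88.4) lay below the median of their matches. In HFD the difference was -126 genes (-144 to -115), with 85.5% (81.6 to 88.9) below. Both values changed under a minimum of UMIs, in CD from 2000 and in HFD only from 3000. From 2000 UMIs the CD difference was -12.5 genes (-77 to 71), an interval that holds 0. The HFD difference from 2000 UMIs was -129 genes (-161.5 to -105.5), close to its value over all cells. From 3000 UMIs the CD difference was 315.5 genes (179 to 416), of the other sign. In HFD it was then 136 genes (-79.5 to 253), which holds 0. The ratio of genes to UMIs alone gives the opposite order, since it falls with depth. Per 100 UMIs, CD neutrophils had 42.3 genes (41.7 to 42.8) and HFD neutrophils had 39.5 (38.7 to 40.1), 1.14 times (1.11 to 1.17) and 1.10 times (1.06 to 1.13) the other immune value, and among the immune types NK cells alone were higher. For HFD the interval held 1 under a minimum of UMIs, at 1.02 (0.986 to 1.05) from 2000 and 1.05 (0.978 to 1.15) from 3000, whereas for CD it stayed above 1, at 1.08 (1.02 to 1.14) and 1.15 (1.03 to 1.26).

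Set against single types at matched UMIs, neutrophils had fewer genes than 6 of 8 types in CD and 7 of 8 in HFD, with an interval below 0 for 6 in either library. Against NK cells the difference was -200 genes (-211 to -192) in CD and -234 (-248 to -222) in HFD. Against T cells it was -75 (-86.5 to -68) and -116 (-130 to -104), and against B cells -57 (-65 to -51) and -92 (-106 to -81). Monocytes gave -141 (-156 to -115) and -303 (-326 to -282), although only 200 and 288 neutrophils had a match there. Dendritic cells (DCs) gave 397 genes more (202 to 623) in CD and 25 (-16 to 45) in HFD, over 35 and 73 matched neutrophils. T cells set against the rest of the immune types in the same way gave -158 and -154 genes, DCs gave -410 and -267, and NK cells gave 166 and 194. As a percent of the genes of the matched cells, the neutrophil difference was -12.6% (-13.9 to -11.4) in CD and -14.2% (-16.2 to -13.1) in HFD. It was second lowest to that of DCs in CD, at -15.5% (-16.8 to -13.3), and the lowest in HFD, where DCs had -10.8% (-12.1 to -9.03). T cells had -12.0% (-12.7 to -11.3) and -10.2% (-11.1 to -9.47), and in CD the neutrophil interval overlapped those of both DCs and T cells.

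The mitochondrial difference remained at matched UMIs. Neutrophils had -2.24 percentage points (-2.31 to -2.16) in CD and -2.53 (-2.61 to -2.46) in HFD, with 92.6% and 91.6% of cells below their matches. From 3000 UMIs the difference was smaller, at -1.28 points (-1.54 to -0.888) in CD and -1.50 points (-2.16 to -0.804) in HFD. With no minimum of UMIs, the neutrophils that had a match were lower than each of the 8 other immune types in both libraries. Each interval lay below 0. The range was -3.10 to -0.726 points in CD and -5.80 to -0.134 points in HFD. The smallest difference in HFD was that from alveolar macrophages (-0.242 to -0.0187), over the 344 neutrophils that had a match. DCs gave a match to only 35 CD and 73 HFD neutrophils, and pDCs to 24 and 26. These intervals leave out the error of the reference median, which can rest on as few as 3 cells.

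Basophils at matched UMIs had a median difference of -47 genes in CD (-92 to 12) and of -99 genes in HFD (-129 to -65). The CD interval holds 0 and the HFD interval does not. When the matches were myeloid cells alone, the differences were -234 genes (-250 to -164) and -290 genes (-323 to -232), and both intervals exclude 0. Their mitochondrial percent was below that of their matches in 29 of 29 CD cells and 33 of 33 HFD cells, by a median of -1.94 points (-2.37 to -1.43) and -2.11 points (-2.44 to -1.66). Matched to myeloid cells alone, the mitochondrial differences were smaller, at -1.21 points (-1.49 to -0.728) and -1.45 points (-1.76 to -1.18). Set against single types, basophils were lower than 8 of 8 in CD and 7 of 8 in HFD, with an interval below 0 for 7 in either library, the exception in HFD being alveolar macrophages (0.0937 points, -1.11 to 0.640, over 21 matched cells). Per 100 UMIs, CD basophils had 35.1 genes (33.1 to 36.8) and HFD basophils had 31.8 (31.1 to 33.4), 0.948 times (0.885 to 1.00) and 0.886 times (0.855 to 0.939) the other immune value. Against myeloid types alone the ratios were 1.10 (1.02 to 1.18) and 1.05 (1.00 to 1.13), whose intervals lie above 1. In CD the interval against the pool holds 1, so a direction turned in HFD alone. Basophils had 0.447 and 0.483 times the UMIs of myeloid cells, and the part of depth in these ratios was not tested.

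**Figure D2:**
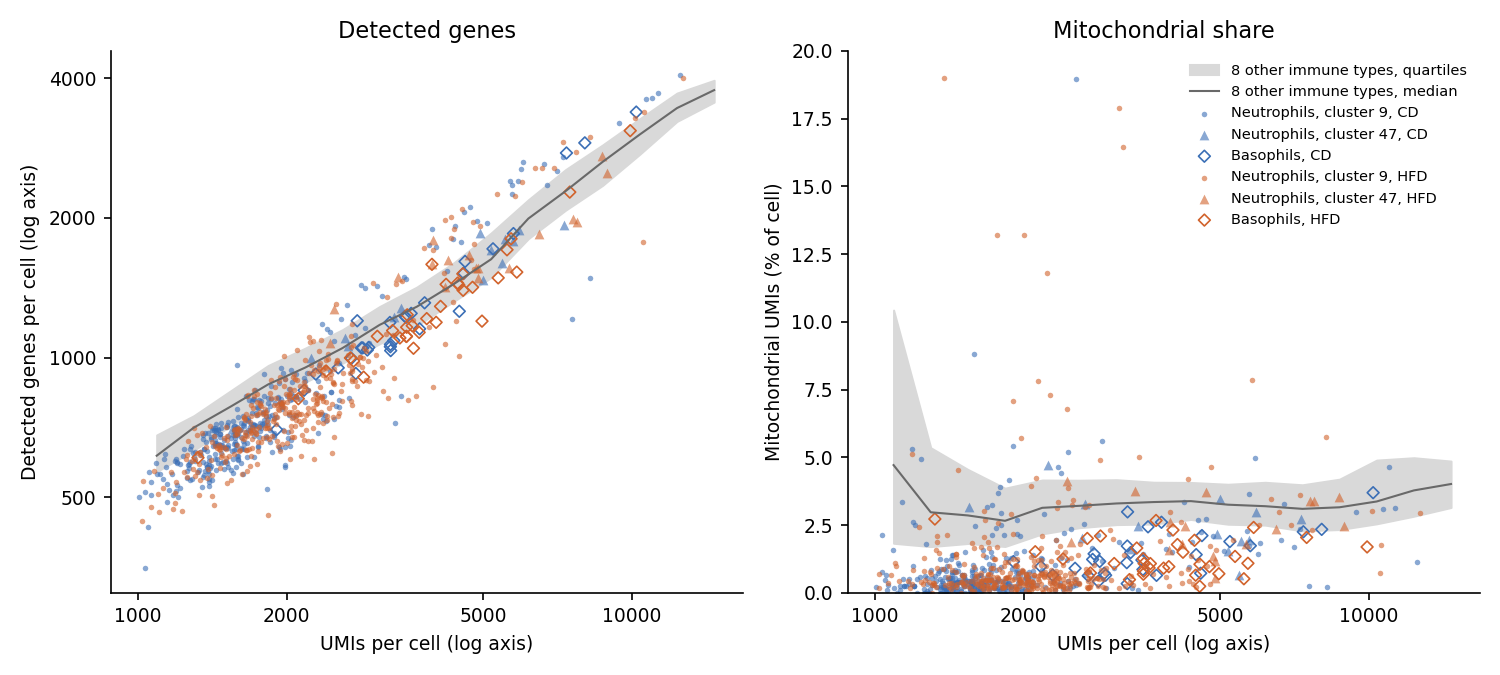
Detected genes (left, log axis) and mitochondrial percent (right) of each neutrophil of cluster 9 (points) and cluster 47 (triangles) and each basophil (diamonds) against its UMIs (log axis), in CD (blue) and HFD (orange). The grey line and band give the median and quartiles of the 8 other immune types of both libraries at the same UMIs. Of CD and HFD neutrophils, 84.8% and 85.5% lie under the matched median of their own library in genes, and 92.6% and 91.6% in mitochondrial percent.

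The 2 neutrophil clusters had intervals that did not overlap in UMIs, genes or mitochondrial percent. The median cell of cluster 47 had 4956 UMIs under CD (2626 to 5731) and 4841 under HFD (3951 to 6487), against 1652 (1593 to 1715) and 2043 (1963 to 2116) in cluster 9. It had 1535 genes in CD (1061 to 1853) and 1595 in HFD (1489 to 1843), against 698 and 771 in cluster 9. Its mitochondrial percent was 2.31% (1.61 to 3.26) and 2.45% (1.79 to 3.40), against 0.453% (0.400 to 0.537) and 0.569% (0.510 to 0.651). Genes per 100 UMIs were 35.0 (29.5 to 42.0) and 32.2 (28.4 to 40.6), against 42.4 (41.8 to 43.1) and 39.5 (39.0 to 40.2), with overlap. At matched UMIs, cluster 47 differed from the other immune types by 14.8 genes (-115 to 71) in CD and 28 genes (-122 to 222) in HFD. Its mitochondrial difference was -0.966 points (-1.70 to 0.196) and -0.826 points (-1.65 to 0.339), and each of these 4 intervals holds 0. Cluster 47 itself lay in 2 places of the plane, with 14 cells (5 from CD, 9 from HFD) on the left and 17 (9 and 8) on the right. The left cells had a median of 2626 UMIs under CD (1551 to 3407) and 4672 under HFD (3930 to 7742), and the right cells 5464 (4925 to 5904) and 5257.5 (2452 to 8895), so that the places differed without overlap for CD alone, over 5 and 9 cells. Mitochondrial percent overlapped between the places in both libraries.

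Cluster 9 also held cells that stood apart. An arm of 46 cells lay left of 1.8 on the first axis of the plane, a limit chosen after the plane had been seen, and the cells nearest to it on either side were at 1.798 and 1.801. It held 28 CD cells, 8.02% of cluster 9 in that library (5.40 to 11.4), and 18 HFD cells, 4.96% (2.96 to 7.72). The arm had a median of 5696.5 UMIs, 2256 genes and 2.34% mitochondrial UMIs, whereas the 666 remaining cells had 1774.5 UMIs, 715.5 genes and 0.475%. Of the 31 cells of cluster 9 with at least 5000 UMIs, 26 (83.9%) were in the arm, compared with 20 of 681 (2.94%) of the others.

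At matched UMIs the arm had 416 genes more than other immune cells in CD (328 to 451) and 482 more in HFD (442 to 583), and 0 of its 46 cells lay below their matches. The rest of cluster 9 had -109 genes (-118 to -101) and -138 genes (-152 to -125), with 94.1% and 92.5% of cells below. The median gene difference was thus of opposite sign in the arm and in the body of the cluster as a whole, which differed in depth. The few cells of the body with at least 3000 UMIs had 190.5 genes (-1074.5 to 478) over 10 CD cells, the sign of the arm, and -136 genes (-319 to 113) over 28 HFD cells, and both intervals hold 0. In mitochondrial percent the arm was -0.974 points from its matches in CD (-1.44 to -0.579) and -0.720 points in HFD (-1.31 to 0.339), and the rest of the cluster was -2.31 and -2.60 points. A droplet with 2 cells has more UMIs and more genes than either cell, and no step that removes such doublets is stated in the study's methods. The part of doublets in the arm and in cluster 47 was not tested, since the levels of single genes were not analysed here.

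**Figure D3:**
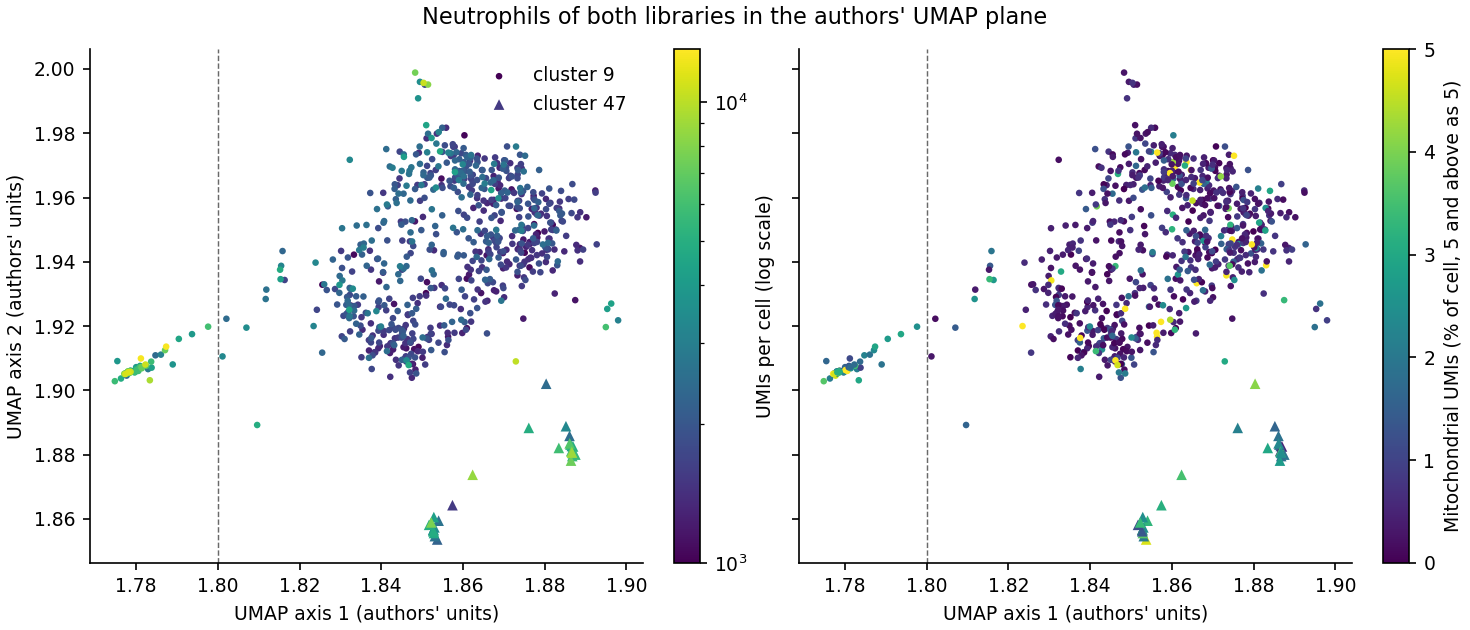
Positions of the 743 neutrophils of both libraries in the authors' UMAP plane (both axes in plane units), as points for cluster 9 and triangles for cluster 47, coloured by UMIs on a log scale (left) and by mitochondrial percent (right). The dashed line marks 1.8 on the first axis. The arm of 46 cells to its left and the 31 cells of cluster 47 have higher medians on both colour scales than the body of cluster 9, and single cells of cluster 47 lie as low as the body.

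By depth, the body of neutrophils with few UMIs was set off from those with many. Median mitochondrial percent was 0.400% in CD neutrophils with 1500 to 2000 UMIs and 0.631% with 2000 to 3000, but 1.87% with 3000 to 5000 and 1.96% from 5000 UMIs. In HFD it was 0.522% and 0.554%, and then 1.19% and 2.94%. The HFD value with 3000 to 5000 UMIs rests in part on cluster 47: for cluster 9 alone, 33 of these 42 cells, it was 0.721%, whereas for CD it was 1.84% over 16 of 20 cells. In basophils the CD values rose through these classes, at 0.813% with 2000 to 3000 UMIs, 1.41% with 3000 to 5000 and 2.25% from 5000, over 10, 13 and 5 cells. The HFD values did not, at 1.52%, 1.05% and 1.52% over 5, 21 and 6 cells. Across cells, Spearman's rho between UMIs and mitochondrial percent was 0.367 over 363 neutrophils in CD and 0.224 over 380 in HFD, a description of cells that share a library. For basophils it was 0.584 over 29 cells in CD and -0.0652 over 33 in HFD.

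Between diets, neutrophils differed in depth. The median of UMIs in HFD was 1.24 times that in CD (1.16 to 1.34), and the 2 intervals did not overlap. The same held for UMIs in 7 of 17 cell types (41.2%), always with HFD higher, and the neutrophil ratio was the third highest of the 17. NK cells had a ratio of 1.30 (1.16 to 1.42), and the 8 other immune types pooled rose from 3312 to 3738 UMIs. Detected genes in neutrophils were 1.12 times as many in HFD (1.06 to 1.17), in a measure in which 41.2% of types did not overlap, and 6 types had a higher ratio. Among neutrophils with at least 2000 UMIs the direction turned, with a ratio of 0.805 (0.621 to 1.02). Genes per 100 UMIs were 0.933 times as many (0.904 to 0.961), again without overlap, as in 41.2% of types. The mitochondrial percent had a ratio of 1.23 (0.952 to 1.63), with overlapping intervals, and 29.4% of types did not overlap in it. Without the arm of cluster 9 the ratio was 1.28 (1.01 to 1.71), an interval that excludes 1. In the body of cluster 9, without the arm and cluster 47, the medians were 0.408% for CD (0.360 to 0.466) and 0.543% for HFD (0.475 to 0.607), with no overlap. Among neutrophils with at least 2000 UMIs it was 0.450 (0.318 to 0.774), in the other direction. With 1 library per diet, the diet and the library cannot be told apart in any of these values.

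When HFD neutrophils were set against CD neutrophils with UMIs within 10% of their own, which 376 of 380 had, the gene difference was small and of the other sign, at -16 genes (-31 to -6). The interval of this difference excluded 0 in 10 of 17 types, or 58.8%, 7 with more genes in HFD and 3 with fewer. The mitochondrial difference of neutrophils was 0.0155 points (-0.0639 to 0.0740), and the interval of this measure excluded 0 in 52.9% of types.

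The diets differed in the share of neutrophils with few UMIs. Of CD neutrophils, 263 (72.5%, 67.5 to 77.0) had fewer than 2000 UMIs, against 170 HFD neutrophils (44.7%, 39.7 to 49.9). This share was also lower in HFD, without overlap, in NK cells (43.4% in CD and 18.9% in HFD) and B cells (20.5% and 10.6%). It was higher in HFD, without overlap, in endothelial cells (26.9% and 31.8%) and fibroblasts (21.0% and 28.5%). In all other annotated types the intervals of the 2 diets overlapped. Between 2000 and 3000 UMIs there were 56 CD and 149 HFD neutrophils, and between 3000 and 5000 there were 20 (5.51%, 3.40 to 8.38) and 42 (11.1%, 8.08 to 14.6). From 5000 UMIs there were 24 CD cells, or 6.61% (4.28 to 9.68), and 19 HFD cells, or 5.0% (3.04 to 7.70). In the body of cluster 9, without the arm, the medians were 1614 UMIs for CD (1576 to 1664) and 2017 for HFD (1932 to 2076). In the arm they were 5385.5 (4333 to 6646) and 5886.5 (4366 to 7243), and in cluster 47 the ratio was 0.977 (0.689 to 2.47), both with overlap.

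**Figure D4:**
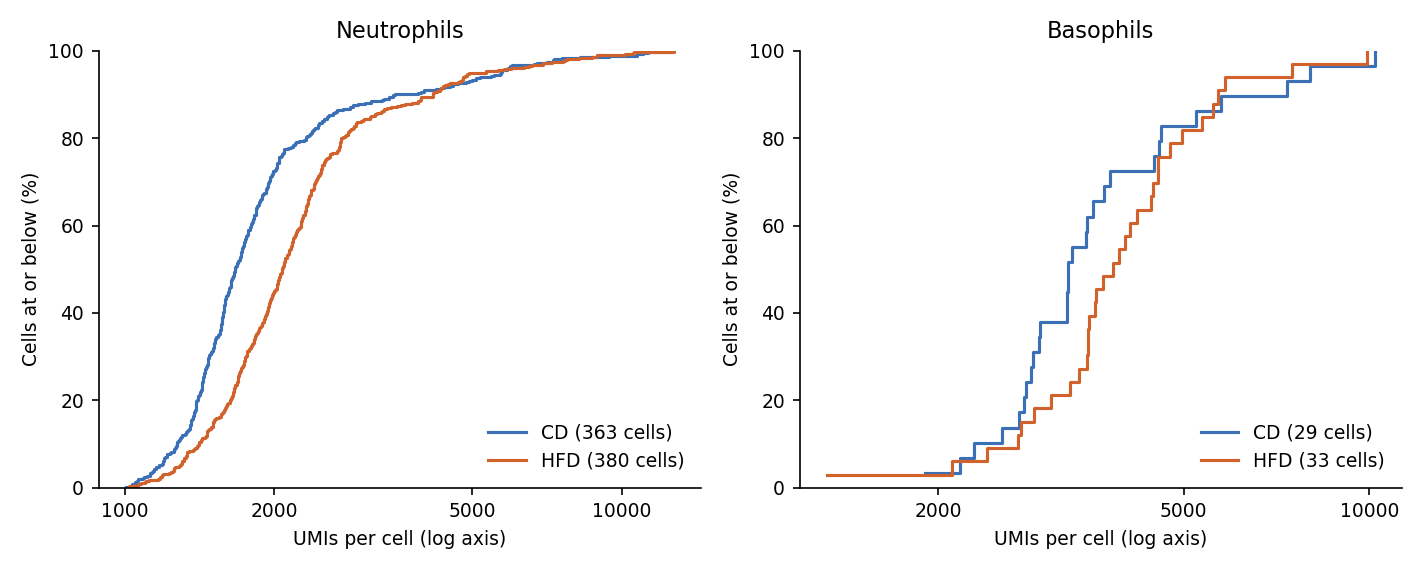
Percent of neutrophils (left) and basophils (right) at or below a given number of UMIs per cell (log axis), in CD (blue) and HFD (orange). The HFD curve of neutrophils lies to the right of the CD curve over most of its height, with 44.7% against 72.5% of cells below 2000 UMIs, and the curves come together at the top.

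The ratio of the neutrophil shares between diets moved with the minimum of UMIs, which left out unequal parts of the neutrophils in the 2 libraries. From 1500 UMIs upward the HFD share was 1.22 times the CD share (1.03 to 1.44). From 2000 UMIs, 100 CD neutrophils (1.44% of the cells left) and 210 HFD neutrophils (2.75%) remained, a ratio of 1.91 (1.50 to 2.45). From 2500 UMIs the ratio was 1.50 (1.08 to 2.11), and from 3000 UMIs, with 44 and 61 cells, it was 1.20 (0.803 to 1.81). At 1500 and 2000 UMIs no other of the 17 types rose by more from its value over all cells, and NK cells, with a ratio of 1.34 (1.11 to 1.62) at 2000, were next. At 3000 UMIs NK cells, whose ratio rose 1.91 times from its value over all cells, and B cells, at 1.26 times, rose by more than neutrophils, at 1.25 times. The ratio of 0.958 over all cells therefore belongs to the limit of 1000 UMIs of this table, and its value below that limit was not analysed here.

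For basophils the ratio of shares stayed near its value over all cells up to 2500 UMIs, and at 3000 it was 1.25 times that value, as far as in neutrophils. Their ratio of shares was 1.02 from 1500 UMIs, 1.04 from 2000, 1.01 from 2500 and 1.30 (0.691 to 2.51) from 3000, and 1 cell in each library had fewer than 2000 UMIs. Their median UMIs in HFD were 1.18 times those in CD (0.919 to 1.56), with 1.04 times the genes (0.883 to 1.37), 0.907 times the genes per 100 UMIs (0.844 to 1.01) and 0.901 times the mitochondrial percent (0.556 to 1.92). All 4 pairs of intervals overlapped. At matched UMIs, 25 of the 33 HFD basophils had a match in CD, and the gene difference was -45.5 (-73 to -0.5).

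**Figure D5:**
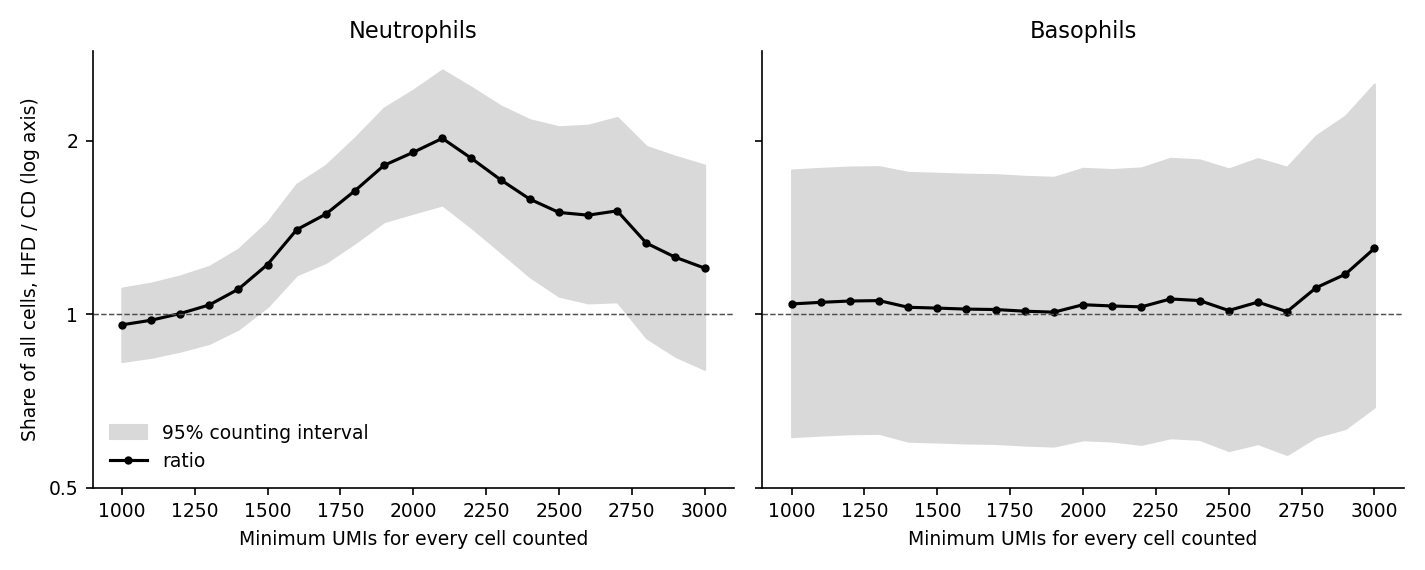
Ratio of the HFD share to the CD share of all cells (vertical log axis) for neutrophils (left) and basophils (right) when a minimum of UMIs between 1000 and 3000 is applied to every cell (horizontal axis), with the 95% counting interval in grey. The neutrophil ratio is 0.958 at 1000 UMIs, 1.91 at 2000 and 1.20 at 3000, whereas the basophil ratio stays between 1.01 and 1.30.

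Cells of each diet were also unevenly mixed within the plane. Among the 15 nearest neighbours of HFD neutrophils 57.6% were HFD cells, against 45.7% among the neighbours of CD neutrophils, while 51.1% of all neutrophils came from HFD. This gap of 11.9 percentage points was the second largest of the 17 types, after the 13.1 points of basophils (68.3% and 55.2%, both above the 53.2% of all basophils that came from HFD). The gap was above 0 in all but 1 of the types. With 30 neighbours the gap was 11.5 points in neutrophils, the largest of the 17, and 6.29 points in basophils. The share of low-UMI cells also differed between the diets in neutrophils, and its part in this gap was not tested.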

How the data were processed

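Lung cells of 1 CD and 1 HFD library were captured with a kit that the labels name as 3' v2 and the study's methods as 5' V1.1. Per the submitters' processing notes, the authors used Cell Ranger, Seurat 4.1.0 and the mm10 (GRCm38.p6) assembly. Per the study's methods, they allowed at most 20% mitochondrial RNA and at least 500 UMIs and 250 genes, left out genes seen in fewer than 5 cells, and clustered the UMAP plane made from 1000 highly variable genes and 50 principal components. The methods describe neither a doublet step nor an ambient RNA correction. The authors also calculated marker scores, which were not used here.

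Raw counts of UMIs and of detected genes, the percent of mitochondrial UMIs and, as a score without a fixed range, the UMAP coordinates were deposited by the authors for each cell, beside the fine cluster and the cell type that the authors assigned by hand. A deposited table of genes gives identifiers and flags. Mitochondrial UMIs per cell were recovered as the percent times the UMIs, and were whole within 1e-06 in 100% of cells.

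Shares were given exact (Clopper-Pearson) 95% intervals, ratios of shares exact conditional binomial intervals, and medians order-statistic intervals, with outer bounds for ratios of medians. For the matched comparison, the median of at least 3 reference cells of the same library within 10% of a cell's UMIs was subtracted. The intervals of matched differences leave out the error of that reference median. Cells could not be thinned to 1 depth, which needs counts per gene. No test was run, with 1 library per diet. The calculations were tested on simulated data. Members, gene lists and comparisons were chosen with earlier results of these data known. Genes were named from lists of neutrophil, basophil, mast cell, eosinophil, monocyte and macrophage genes, and every cluster holding a member was named. Positions came from GENCODE M21. The software was scipy 1.17.1, numpy 2.4.6, pandas 2.3.3 and matplotlib 3.10.9 under Python 3.11.15. The settings varied were the mitochondrial limit (10%), minimums of 2000 and 3000 UMIs and 500 genes, leaving out the top 1% of cells by UMIs or shared barcodes, other denominators, means, other matching widths and myeloid cells as the reference. Minimums of 1500 and 2500 UMIs, and leaving out cluster 47 or the arm of cluster 9, were chosen after seeing the data.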

Additional observations from a re-analysis of the deposited data

How the results depend on the processing

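No paired analysis was possible because a diet is 1 library here, and no test was run. Over 36 results, 334 alternatives were computed, of which 263 left the value within its own reported interval. Leaving out cluster 47 or the arm of cluster 9, chosen after seeing the data, was among these for each neutrophil value it was tried on, but without the arm the interval of the mitochondrial ratio between diets, 1.28 (1.01 to 1.71), came to exclude 1. Minimums of UMIs gave all but 1 of the reversed directions. The neutrophil ratio of shares of all cells was 1.22 from 1500 UMIs, 1.91 from 2000, 1.50 from 2500 and 1.20 from 3000, and among immune cells it was 1.92 from 2000. Without endothelial, B and T cells in the total it was 0.834 (0.721 to 0.966), within its reported interval but excluding 1. The ratio of neutrophil genes between diets reversed to 0.805 from 2000 UMIs and 0.861 from 3000, and the mitochondrial ratio was 0.450 and 0.924. From 3000 UMIs the genes of neutrophils relative to other immune cells reversed, to ratios of 1.24 in CD and 1.03 in HFD and to matched differences of 315.5 and 136 genes. From 2000 UMIs the matched difference in CD was -12.5 genes (-77 to 71), whereas in HFD it was -129 genes (-161.5 to -105.5). Few cells of the body of cluster 9 passed the minimum of 3000, 10 in CD and 28 in HFD. Their matched differences were 190.5 (-1074.5 to 478) and -136 (-319 to 113) genes. The mitochondrial ratio to other immune cells was 0.454 from 2000 and 0.579 from 3000 UMIs in CD and 0.532 from 3000 in HFD, and matched differences were -1.73 and -1.28 points in CD and -1.50 in HFD. With means the ratio of UMIs between diets was 1.14, and the mitochondrial ratios to other immune cells were 0.291 and 0.350. Matching to myeloid types gave -115 and -169 genes and -1.57 and -1.85 points in neutrophils, and -234 and -290 genes and -1.21 and -1.45 points in basophils. Against myeloid types the HFD basophil ratio of genes per 100 UMIs reversed to 1.05, and in CD it was 1.10. Matching within 25% gave -113 genes in CD neutrophils, and a limit of 10% mitochondrial UMIs gave -2.32 points in HFD. Another 37 values, all of them ratios to other immune types in UMIs, genes or genes per 100 UMIs, left their intervals without reversing a called direction, by up to 2.19 times, among them the HFD neutrophil ratio of genes per 100 UMIs, whose interval held 1 at 1.02 from 2000 and 1.05 from 3000 UMIs. The cause of these shifts was not tested. Basophil values rest on 29 and 33 cells, and cells below 1000 UMIs were not analysed here.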
